A study of Canis lupus familiaris with 48 samples.

Results

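In the canine kidney epithelial cell line MDCK I, 53 of 32704 annotated genes had a mean level at least 2 times that of control cells after urea, after NaCl and after raffinose alike. Levels are given as CPM, the counts of a gene per megaread of its library. A gene was taken when its control mean was at least 0.5 CPM, when the ratio of each solute's mean to the control mean was at least 2 (0.1 CPM added to every mean), and when the ratio of NaCl to raffinose lay between 0.625 and 1.6. The mitochondrial genes and ENSCAFG00000015180 were left out by the same rule. The genes were thus chosen by their group mean levels in these same libraries, so their levels against control, and NaCl against raffinose, are given below as a description without a test.

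Messenger RNA was sequenced from 48 libraries in 4 groups of 12. The cells were kept in culture for 144 h. For the final 24 h they were in medium raised by 200 mOsm to 500 mOsm with urea, NaCl or raffinose, or in regular medium of 300 mOsm (control). Each group holds 1 library at each of the same 12 passage numbers between 1 and 19, so that all replicates come from a single line and a p-value reflects variation between its passages. The stated aim of the study was to follow pathways and drug transporters under hyperosmotic stress. The deposited table pairs its Ensembl identifiers with no gene symbols, so the genes are described by identifier, position on the dog genome build CanFam3.1 and exon structure, and neither their functions nor epithelial markers were checked here.

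Cells of the kidney medulla live in fluid rich in both salt and urea. NaCl and raffinose, a trisaccharide, cross the plasma membrane poorly, so that they draw water out of the cell and shrink it, and cells answer over hours by taking up or making organic osmolytes. Urea crosses membranes more readily and raises osmolality on both sides, and it is known in kidney cells for effects on protein stability and oxidative state. In bulk RNA, a change in the number of cells of a kind and a change in RNA per cell cannot be told apart.

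Counted reads per library had a median of 10.3 megareads (3.92 to 15) after urea, 11.9 megareads (6.77 to 14.4) after NaCl, 10.1 megareads (6.6 to 16.2) after raffinose and 10.2 megareads (6.08 to 16.1) in control. A count of 0 allows up to 3 reads, which corresponds to 0.200 to 0.766 CPM in the urea libraries and 0.187 to 0.493 CPM in the control libraries, and this limit covers counting error only. Genes near 0.5 CPM in control were therefore measured from few reads.

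Of the 3 solutes, urea met the 2-fold limit in the fewest genes. Of 12841 genes with a control mean of at least 0.5 CPM, 237 (1.85%) had a ratio of at least 2 after urea, 754 (5.87%) after NaCl and 887 (6.91%) after raffinose. NaCl and raffinose shared 695 of these, and 57 met the limit with all 3 solutes. The limit on NaCl against raffinose removed 4 of them and left 53, which is 0.413% of the 12841 genes. Among the 53, the smallest of the 3 ratios belonged to urea for 37 genes, to NaCl for 10 and to raffinose for 6.

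The median ratio to control over the 53 genes was 2.64 after urea (2.01 to 9.95), 3.19 after NaCl (2.07 to 21.7) and 3.55 after raffinose (2.03 to 17.5). A ratio of at least 4 was found for 6 genes after urea, 19 after NaCl and 20 after raffinose. All 12 urea libraries lay above all 12 control libraries for 32 of the 53 genes, against a background of 3.36% of the 12841 genes. The same held after NaCl for 35 genes (background 8.03%) and after raffinose for 38 genes (background 8.43%). Since the rule used these contrasts, nothing is read from these counts. Within passages, 50 genes were above the control library of the same passage in all 12 urea libraries, 50 in all 12 NaCl libraries and 51 in all 12 raffinose libraries. The least regular gene exceeded control in 9 of 12 passages after urea, 10 after NaCl and 11 after raffinose. These counts within passages rest on the same contrasts, without a share over all genes, and nothing is read from them either.

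**Figure D1:**
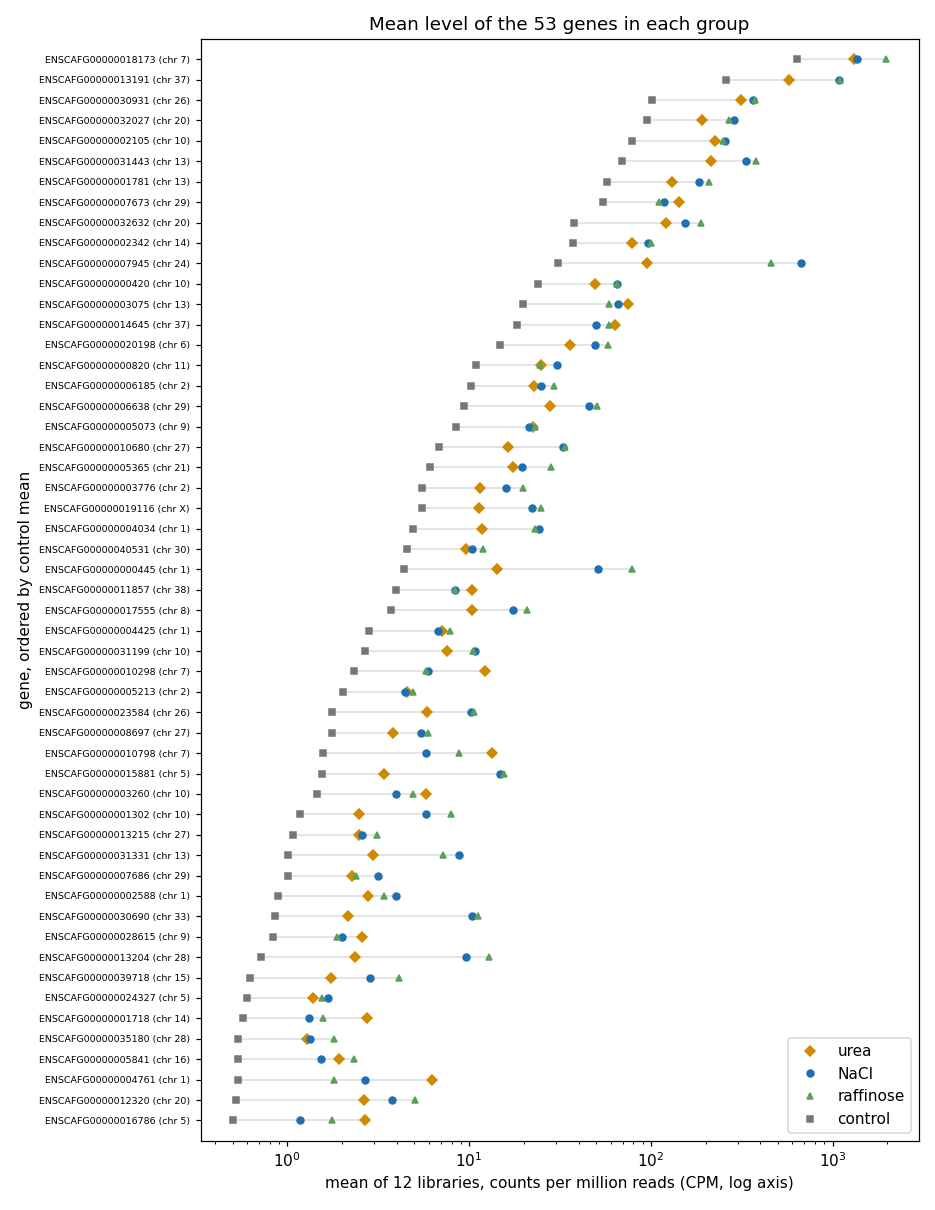
Mean level of each of the 53 genes in CPM (log axis), 12 libraries per group; diamonds show urea, circles NaCl, triangles raffinose and squares control. The urea mark is nearest to the control mark for 37 genes, and control means run from 0.504 to 636 CPM.

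Fold changes from the model fitted to all genes, on TMM-scaled counts, had a median over the 53 genes of 1.49 on the log2 scale for urea against control (1.08 to 3.57), 1.86 for NaCl (1.23 to 4.62) and 2.08 for raffinose (1.27 to 4.39). The medians over all 12654 tested genes were 0.02, -0.02 and -0.02, in the same order. All 53 genes passed the filter on low counts. NaCl minus raffinose, which the rule held within a window, had a median of -0.20 and ran from -0.69 to 0.50.

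Together the 53 genes took 0.393% ± 0.040 of counted reads after urea, 0.559% ± 0.084 after NaCl, 0.615% ± 0.077 after raffinose and 0.165% ± 0.018 in control (SD, n = 12 each). The urea libraries ran from 0.334% to 0.463%, the NaCl libraries from 0.425% to 0.697%, the raffinose libraries from 0.483% to 0.747% and the control libraries from 0.141% to 0.190%. Every urea library was thus above every control library, and the urea range overlapped that of NaCl but not that of raffinose. The rule chose genes with solute means above control, so the separation of these sums from control is built in. A large part of these shares came from ENSCAFG00000018173, on chromosome 7 (64405533 to 64655273, minus strand, 75 exon blocks), which was picked out after its values were seen. Without it the shares were 0.263% ± 0.033 after urea, 0.423% ± 0.067 after NaCl, 0.419% ± 0.052 after raffinose and 0.101% ± 0.014 in control.

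Urea gave a smaller change than the other solutes in most of the 53 genes, a direction that the rule itself favours. The rule sets no limit on urea against NaCl or raffinose. All of these group means enter it against control, however, and both comparisons use the same urea libraries. The 2-fold limit was reached by 237 genes after urea, 754 after NaCl and 887 after raffinose. Genes that met it with all 3 therefore tended to lie nearest to it after urea (37 of the 53). The p-values below do not allow for this choice. Against NaCl, 31 of the 53 genes were lower after urea (background 35.7% of all genes tested) and 7 were higher (background 36.9%), by edgeR's quasi-likelihood test with an adjusted p under 0.05. The median of urea minus NaCl over the 53 genes was -0.46 on the log2 scale, against 0.00 over all genes tested. Against raffinose, 35 genes were lower after urea (background 37.6%) and 3 were higher (background 38.4%), with a median of -0.63 against 0.01 over all genes tested. In both directions together, 38 of the 53 genes were called in each comparison, where 72.6% of all genes tested were called against NaCl and 76% against raffinose, so that the share called was near the background. With a required change of at least 1.5-fold (glmTreat), 13 genes were lower than NaCl (background 15%) and 5 higher (background 12.7%). By the same test 22 were lower than raffinose (background 17.6%) and 2 higher (background 15.2%).

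Set side by side, 29 of the 53 genes (54.7%) were lower after urea than after NaCl and lower than after raffinose, which was so for 32.9% of all genes tested. A further 3 genes (5.66%) were higher after urea than after each of the others, against 33.9% of all genes tested. The choice of genes by the rule bears on both of these shares. Of the rest, 4 genes (7.55%, against 2.89% of all genes tested) were higher than NaCl alone, 2 (3.77%, against 2.77%) lower than NaCl alone and 6 (11.3%, against 4.66%) lower than raffinose alone. The count of genes higher than both became 4 with the passage number as a block, with library totals alone and without the filter on low counts. It was also 4 without passage 7, 10 or 16, and 2 with a minimum fold of 1.5. The count lower than both was 13 with that minimum fold, 26 with library totals alone and 31 with the passage number as a block. With a mean of at least 5 CPM, 36 genes were left, of which 1 was higher and 25 lower than both. Shares over all genes were not computed for these settings. The last 9 genes (17.0%, against 18.4% of all genes tested) passed the test in neither comparison.

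**Figure D2:**
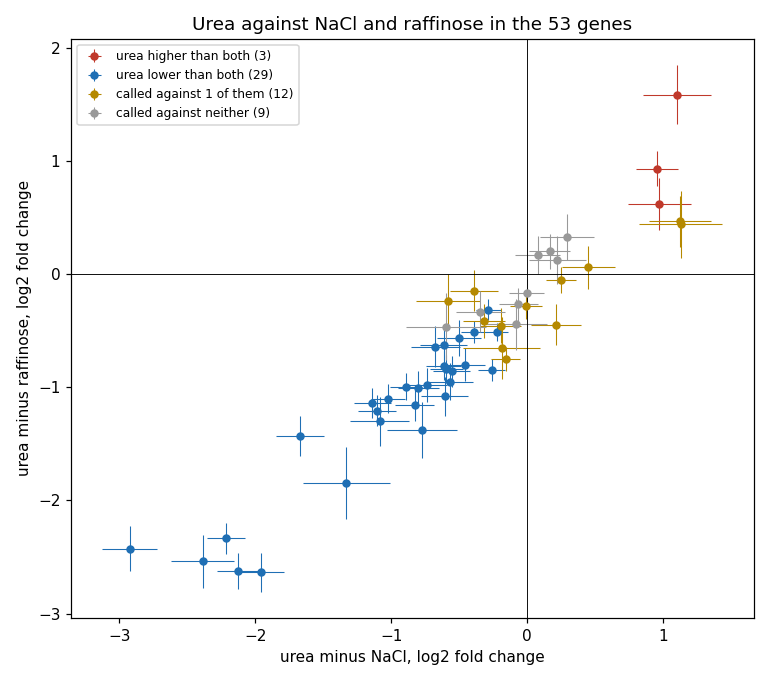
Log2 fold change of urea minus NaCl (horizontal) and urea minus raffinose (vertical) for the 53 genes; bars are standard errors and colours show the calls. The 29 genes called lower against both lie at the lower left and reach -2.92 on the horizontal axis, and the 3 called higher lie at the upper right; the axes share the urea libraries.

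In the 29 genes lower after urea, the median ratio to control was 2.40 after urea, 4.20 after NaCl and 4.88 after raffinose, and the median control level was 5.51 CPM. NaCl reached a ratio of 4 in 17 of these 29 genes, and urea in 1. In the 3 genes higher after urea, the median ratio was 5.10 after urea, 2.50 after NaCl and 2.49 after raffinose. In the 9 genes that passed neither test, it was 2.64 after urea, 2.27 after NaCl and 2.36 after raffinose. The 3 sets were formed by these same contrasts, so how urea stands to NaCl and raffinose in them follows from that choice.

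The gene with the largest deficit after urea against NaCl was ENSCAFG00000007945, on chromosome 24 (24184440 to 24187910, plus strand, 4 exon blocks). Its lowest, median and highest libraries were 72.3, 92.1 and 124 CPM after urea, 339, 563 and 1645 CPM after NaCl, 211, 426 and 948 CPM after raffinose, and 18.7, 28.4 and 47.3 CPM in control. The urea range lay wholly above that of control and wholly below those of NaCl and raffinose. Urea minus NaCl was -2.92 ± 0.20 on the log2 scale (SE; adjusted p = 1.27e-18 by edgeR), and urea minus raffinose was -2.43 ± 0.20 (adjusted p = 4.67e-16 by edgeR). The NaCl library of passage 19 supplied 20.4% of that group's summed level, and the NaCl mean was 673 CPM with it and 585 CPM without it. Per kilobase of exon this gene also had the highest mean level of the 53, at 131 CPM after urea, 927 after NaCl, 628 after raffinose and 42.5 in control.

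ENSCAFG00000030690, a gene of 1 exon on chromosome 33 (16271121 to 16271777, minus strand), came next against NaCl among the genes called alike in both comparisons. Its lowest, median and highest libraries were 0.952, 2.19 and 4.11 CPM after urea, 5.80, 9.85 and 21.3 CPM after NaCl, 5.34, 11.5 and 15.4 CPM after raffinose, and 0.249, 0.788 and 1.85 CPM in control. No urea library reached the lowest NaCl or raffinose library, while the urea and control ranges overlapped. Urea minus NaCl was -2.39 ± 0.23 (adjusted p = 3.67e-13 by edgeR) and urea minus raffinose -2.54 ± 0.23 (adjusted p = 4.11e-14 by edgeR), on the log2 scale.

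Among the 3 genes higher after urea than after each other solute, the largest log2 differences were those of ENSCAFG00000004761, on chromosome 1 (111635008 to 111641310, plus strand, 4 exon blocks). Its lowest, median and highest libraries were 1.80, 5.70 and 13.3 CPM after urea, 1.63, 2.25 and 6.64 CPM after NaCl, 0.790, 1.81 and 3.31 CPM after raffinose, and 0.0660, 0.469 and 1.18 CPM in control. The urea range overlapped those of NaCl and raffinose but not that of control. Its ratio to control was 9.95 after urea, the highest urea ratio of the 53 genes, with 4.37 after NaCl and 2.98 after raffinose. The control mean under these ratios was 0.536 CPM, near the floor of the rule, and rested on 5.83 reads per library. Urea minus NaCl was 1.10 ± 0.25 (adjusted p = 0.000102 by edgeR) and urea minus raffinose 1.59 ± 0.26 (adjusted p = 3.7e-07 by edgeR), on the log2 scale.

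The second gene higher after urea than after each other solute was ENSCAFG00000001718, with 1 exon on chromosome 14 (8324788 to 8326740, plus strand). It averaged 2.76 ± 0.93 CPM after urea, 1.31 ± 0.45 CPM after NaCl, 1.56 ± 0.74 CPM after raffinose and 0.569 ± 0.32 CPM in control (SD, n = 12 each). Urea exceeded NaCl by 0.97 ± 0.23 (adjusted p = 0.000215 by edgeR) and raffinose by 0.62 ± 0.23 (adjusted p = 0.013 by edgeR) on the log2 scale. Against raffinose it did not pass when a change of at least 1.5-fold was required. The third, ENSCAFG00000010298 on chromosome 7 (44819 to 73051), averaged 12.3 ± 3.5 CPM after urea, 5.97 ± 1.2 CPM after NaCl, 5.78 ± 1.3 CPM after raffinose and 2.32 ± 0.81 CPM in control. Its urea libraries, from 8.17 to 19.3 CPM, all lay above the highest NaCl library (7.97 CPM) and the highest raffinose library (7.26 CPM). Its differences were 0.95 ± 0.15 from NaCl (adjusted p = 2.91e-07 by edgeR) and 0.93 ± 0.16 from raffinose (adjusted p = 4.7e-07 by edgeR); being the last of 3, it was named after its values were seen.

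**Figure D3:**
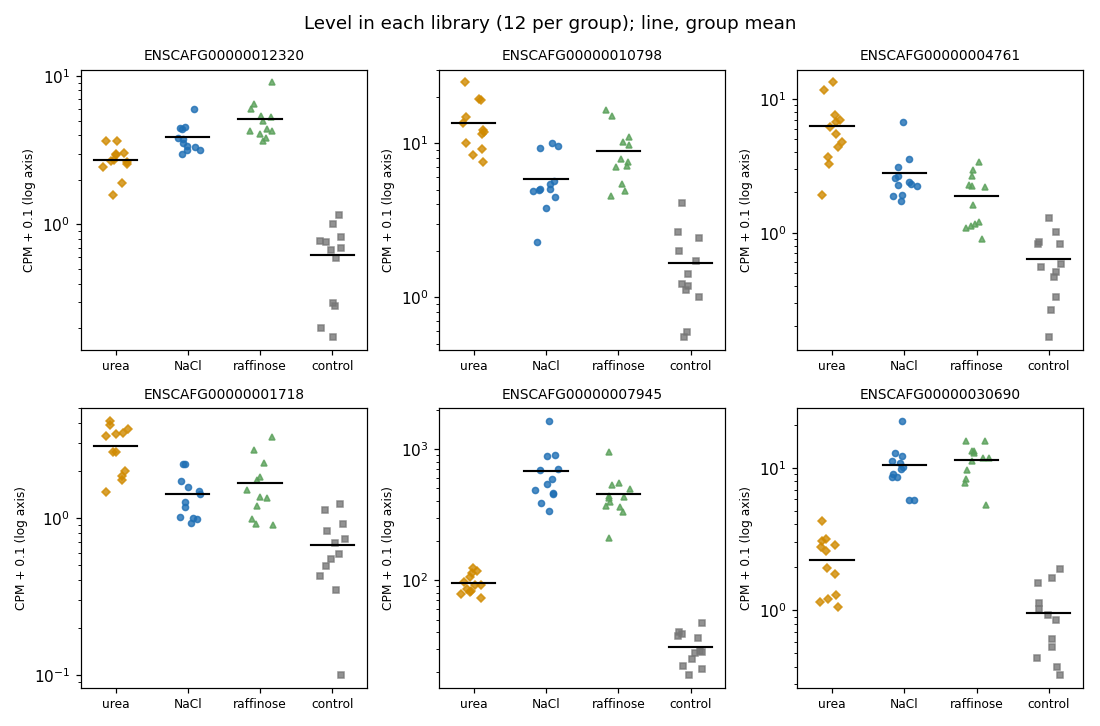
Level in each library, as CPM + 0.1 on a log axis, of 6 of the 53 genes in the 4 groups of 12; the line is the group mean. For ENSCAFG00000007945 the urea points form a separate band between control and the other solutes, and for ENSCAFG00000004761 the urea mean is the highest of the 4.

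The 9 genes that passed neither test had intervals of differing width. For ENSCAFG00000005073 the 95% interval of urea minus NaCl was -0.25 to 0.25 on the log2 scale, and that of urea minus raffinose was -0.42 to 0.08. For ENSCAFG00000003075, named after its values were seen, the intervals were -0.25 to 0.40 against NaCl and -0.15 to 0.50 against raffinose. For ENSCAFG00000002588, named likewise, they were -1.18 to -0.02 against NaCl and -1.05 to 0.12 against raffinose, so that a difference of more than 2-fold lay within both. The intervals are not adjusted for the number of genes tested, whereas the calls are. The interval of ENSCAFG00000002588 against NaCl therefore left out 0 although its adjusted p was 0.0631 by edgeR.

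Judged by the smallest of the 3 log2 fold changes, ENSCAFG00000012320 stood highest. It lies on chromosome 20 (40496269 to 40497744, plus strand, 2 exon blocks). Its lowest, median and highest libraries were 1.49, 2.59 and 3.57 CPM after urea, 2.90, 3.57 and 5.91 CPM after NaCl, 3.57, 4.58 and 8.93 CPM after raffinose, and 0.0754, 0.583 and 1.06 CPM in control. All 36 solute libraries were above all 12 control libraries. Its log2 fold changes against control were 2.36 ± 0.22 for urea, 2.97 ± 0.21 for NaCl and 3.44 ± 0.21 for raffinose (SE), and its control mean rested on 5.83 reads per library.

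ENSCAFG00000010798, on chromosome 7 (1598553 to 1613203, minus strand, 17 exon blocks), was the next by this measure. Its libraries ran from 7.44 to 24.7 CPM after urea (median 11.9), from 2.19 to 9.95 CPM after NaCl (median 4.91), from 4.47 to 16.4 CPM after raffinose (median 7.64) and from 0.453 to 3.96 CPM in control (median 1.21). Only the NaCl range overlapped that of control. The log2 fold changes against control were 3.16 ± 0.27 for urea, 2.03 ± 0.27 for NaCl and 2.69 ± 0.27 for raffinose (SE). Urea exceeded NaCl by 1.12 ± 0.23 (adjusted p = 2.56e-05 by edgeR), and the difference from raffinose was 0.47 ± 0.23 (adjusted p = 0.0578 by edgeR). With the passage number as a block the difference from raffinose was 0.50 and passed the test, and it also passed with library totals alone, without the filter and without passage 7, 10 or 16.

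The 53 genes covered a wide range of levels, but many were weakly expressed in control. Their median control level was 3.98 CPM, against 28.8 CPM for all 12841 genes above the floor. In control, 12 genes (22.6%) were under 1 CPM, which was so for 6.04% of the 12841, while 30 were under 5 CPM and 17 were at 10 CPM or more. The control mean divides all 3 ratios of the rule, so a low control value raises each of them. This contrast with the 12841 genes is therefore partly built in, and with 1 CPM added to the means the rule gave 31 genes. After ENSCAFG00000007945, the highest mean level per kilobase of exon was that of ENSCAFG00000002105 on chromosome 10 (38043470 to 38065127, plus strand), at 260 CPM per kilobase after urea, 296 after NaCl, 290 after raffinose and 91.3 in control. Its libraries ran from 173 to 312 CPM after urea, 199 to 337 CPM after NaCl, 202 to 365 CPM after raffinose and 64.2 to 104 CPM in control. The 3 solutes overlapped one another and stood apart from control, yet urea was lower than NaCl by a log2 difference of -0.28 ± 0.09 (adjusted p = 0.00637 by edgeR) and than raffinose by -0.31 ± 0.09 (adjusted p = 0.00252 by edgeR). When libraries were scaled by their totals alone, neither of these calls remained.

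The lowest levels per kilobase were those of ENSCAFG00000016786 on chromosome 5 (32600484 to 32659183, plus strand, 55 exon blocks) and ENSCAFG00000035180 on chromosome 28 (5651665 to 5663075, minus strand, 3 exon blocks). ENSCAFG00000016786 averaged 0.293 CPM per kilobase after urea, 0.128 after NaCl, 0.192 after raffinose and 0.0551 in control. In control it rested on a mean of 5.25 reads, of which the library of passage 1 supplied 25.7% of the summed level. ENSCAFG00000035180 averaged 0.290 CPM per kilobase after urea, 0.301 after NaCl, 0.405 after raffinose and 0.121 in control, and exceeded control in 9 of 12 passages after urea. In both genes the solute ranges overlapped that of control, and at least 1 control library was at 0, which is under the limit a count of 0 allows.

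At the edge of the rule, ENSCAFG00000032027 (chromosome 20, 37675326 to 37683422) entered with a urea ratio of 2.01 and ENSCAFG00000001302 (chromosome 10, 10955222 to 10955623) with 2.03. ENSCAFG00000018691 stayed out at 1.98, with means of 425 CPM after urea, 672 CPM after NaCl, 906 CPM after raffinose and 215 CPM in control. ENSCAFG00000003694 stayed out at 1.97, with 26 CPM after urea, 29.8 CPM after NaCl, 42.9 CPM after raffinose and 13.2 CPM in control. With each passage left out in turn, the rule gave 49 to 55 genes, and 36 of the 53 met it every time.

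Spread between passages was similar in the 4 groups. The median coefficient of variation over the 53 genes was 27.4% after urea, 26.8% after NaCl, 27.9% after raffinose and 29.4% in control. The widest control spread, 87.8%, belonged to ENSCAFG00000016786.

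In the annotation, the genes were somewhat shorter and had fewer exons than the rest, with no test made. Their median exon length was 2144 bases against 2261 for the 12841 genes above the floor, their median span 12.1 kb against 19.3 kb, and their median number of exon blocks 5 against 8. Of the 53, 26 lay on the plus strand, and they were spread over 25 chromosomes. Chromosomes 1 and 10 held 5 each and chromosome 13 held 4. Chromosome 29 held 3, or 2.48% of its 121 genes above the floor.

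Among neighbouring genes of the group, 4 pairs (8 genes) followed each other directly in the order of start positions. A gene that starts earlier can still span both. No count of such pairs was made for genes drawn at random, so whether the group's pairs are few or many was not tested. The closest was ENSCAFG00000005073 (chromosome 9, 4311637 to 4314377, minus strand) and ENSCAFG00000028615 (4314710 to 4315618, plus strand), which point away from each other across 332 bases. The span of another gene, ENSCAFG00000005090 (minus strand), overlapped both and so covered this gap, without shared exon bases. ENSCAFG00000005090 averaged 0.638 CPM after urea, 0.627 CPM after NaCl, 0.789 CPM after raffinose and 0.599 CPM in control. ENSCAFG00000005073 averaged 22.6 ± 5.7 CPM after urea, 21.3 ± 4.0 CPM after NaCl, 22.9 ± 5.2 CPM after raffinose and 8.42 ± 2.1 CPM in control, so that the 3 solutes gave nearly the same mean. ENSCAFG00000028615 averaged 2.57 ± 1.1 CPM after urea, 1.99 ± 0.73 CPM after NaCl, 1.88 ± 0.52 CPM after raffinose and 0.832 ± 0.28 CPM in control. Neither passed the test of urea against NaCl or raffinose, except that ENSCAFG00000028615 passed against raffinose with library totals alone (0.48).

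The second pair, on chromosome 29, faces inward across 12.2 kb. ENSCAFG00000007673 (18802897 to 18883675, plus strand) averaged 143 ± 47 CPM after urea, 119 ± 18 CPM after NaCl, 111 ± 32 CPM after raffinose and 54.3 ± 16 CPM in control, and passed against raffinose only with library totals alone (0.37). ENSCAFG00000007686 (18895864 to 19028769, minus strand) averaged 2.25 ± 0.70 CPM after urea, 3.17 ± 1.4 CPM after NaCl, 2.38 ± 0.80 CPM after raffinose and 1.00 ± 0.61 CPM in control. It was lower after urea than after NaCl by a log2 difference of -0.58 ± 0.23 (adjusted p = 0.0229 by edgeR), a call lost without passage 1, 7 or 16 and with library totals alone. The other pairs lay 16.1 kb apart on chromosome 10 and 43.2 kb apart on chromosome 13.

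The genes next to the 53 were described in the same comparisons. Of 97 tested flanking genes outside the group, 31 (32%) rose after urea by edgeR with an adjusted p under 0.05, against 27.4% of all genes tested, and 33 (34%) fell, against 24.9%. After NaCl 50 (51.5%) rose, against 34.6% of all genes tested, and 30 (30.9%) fell, against 36.1%. After raffinose 48 (49.5%) rose, against 36.7%, and 33 (34%) fell, against 38.2%. The median log2 fold change of the flanking genes was -0.02 after urea, 0.19 after NaCl and 0.18 after raffinose.

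Reads were counted without regard to strand, which matters where genes overlap. The span of 18 of the 53 genes overlapped that of another gene, and that of 12 (22.6%, against 24.5% of the 12841) overlapped a gene on the opposite strand. Exon bases were shared with another gene in 3. ENSCAFG00000015881 shared 752 bases with a gene at 38.1 CPM after urea, 37.4 after NaCl, 39.5 after raffinose and 52.3 in control. ENSCAFG00000023584 shared 345 bases with a gene at 68.0, 161, 144 and 158 CPM, in the same order of groups. ENSCAFG00000031199 shared 80 bases with a gene at 198, 365, 369 and 254 CPM. How far these shared bases bear on the counts was not tested. The 6 genes with 1 exon made up 11.3% of the group, against 7.15% of the 12841. Of these 6, 5 (83.3%) overlapped the span of a gene on the opposite strand, against 188 of 918 such genes above the floor (20.5%).

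ENSCAFG00000001302 lies opposite ENSCAFG00000000418, which averaged 188 CPM after urea, 246 CPM after NaCl, 282 CPM after raffinose and 145 CPM in control, the same order of groups as in the small gene. The small gene averaged 2.48 CPM after urea, 5.79 CPM after NaCl, 7.97 CPM after raffinose and 1.17 CPM in control. ENSCAFG00000001718 lies opposite ENSCAFG00000001700, which averaged 320 CPM after urea, 321 CPM after NaCl, 257 CPM after raffinose and 427 CPM in control, so that its mean was lower with every solute. The gene opposite ENSCAFG00000030690 was barely detected, with 0.0392 CPM after urea, 0.422 CPM after NaCl and 0.751 CPM after raffinose, and was at 0 in control. None of these small genes shared exon bases with its partner. The part of these partners in the counts of the small genes was not tested.

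No gene of the group passed the test for a change in its level with passage number. With the 4 libraries of each passage added up, 0 of the 53 genes had an adjusted p under 0.05 by edgeR, where 7 of 13150 genes tested did (0.0532%). An unadjusted p under 0.05 was found in 13 genes (24.5%, against 12.5% of all genes tested), 6 of them with a positive slope, and the slopes ran from -0.62 to 0.71 per 10 passages on the log2 scale with a median of -0.00. The lowest adjusted p was 0.14 by edgeR, for ENSCAFG00000004761 with a slope of 0.71 ± 0.17. DESeq2 called 1 of the 53, the same gene, with a slope of 0.72 (adjusted p = 0.0176 by DESeq2). It called 154 of all 13150 genes tested. Without passage 4, edgeR also called this gene alone among the 53, with a slope of 0.89 (adjusted p = 0.0284 by edgeR). That fit called 51 of all 13187 genes tested.

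A change in the response with passage number was not detectable at this depth and number of passages. By edgeR's test of the solute by passage terms, 0 of the 53 genes had an adjusted p under 0.05 (background 0% of 12654 genes), and DESeq2 called 0. An unadjusted p under 0.05 was found in 2 genes (3.77%, against 3.49% of all genes tested), ENSCAFG00000001718 (p = 0.0221 by edgeR) and ENSCAFG00000000820 on chromosome 11 (p = 0.0448 by edgeR). ENSCAFG00000000820 averaged 24.8 ± 9.1 CPM after urea, 30.5 ± 9.4 CPM after NaCl, 24.5 ± 9.0 CPM after raffinose and 11.0 ± 3.0 CPM in control. The median log2 ratio of the 53 genes to the control library of the same passage stayed between 1.18 and 1.52 after urea, between 1.53 and 1.99 after NaCl and between 1.70 and 2.06 after raffinose. In each single library, 51 to 53 of the genes were above that control after urea, 51 to 53 after NaCl and 52 to 53 after raffinose. That these ratios and counts lie above control follows from the rule, and no share over all genes was computed.

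**Figure D4:**
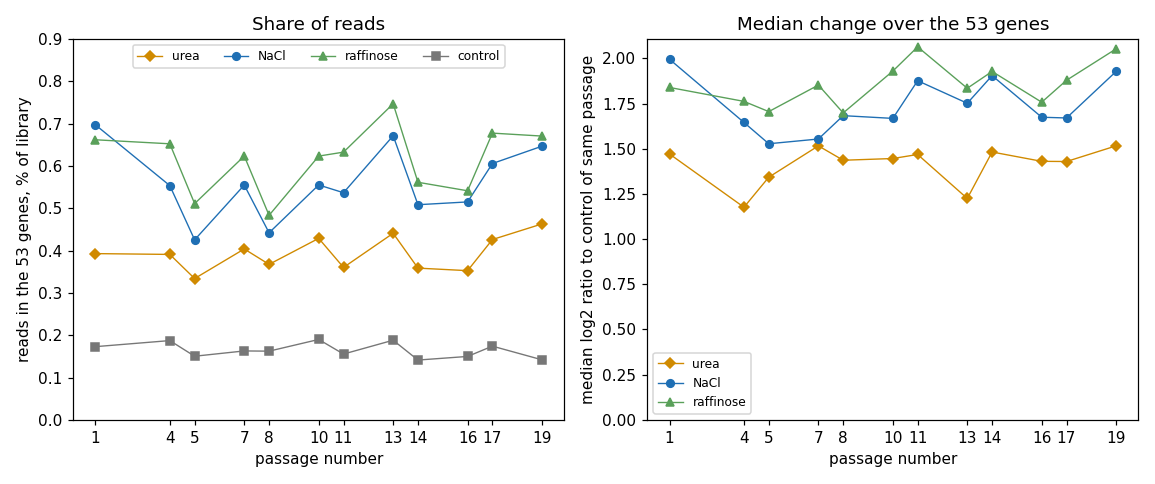
By passage number, the share of counted reads in the 53 genes (left, % of library) and the median over the genes of the log2 ratio to the control library of the same passage (right); each point is 1 library, with urea as diamonds, NaCl as circles, raffinose as triangles and control as squares. At every passage the urea points are below those of NaCl and raffinose and above control, with shares of 0.334% to 0.463% after urea and 0.141% to 0.190% in control.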

How the data were processed

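The values deposited by the authors are raw counts of reads, 1 per gene and library. CASAVA, HISAT2 2.0.5 and featureCounts 1.5.1 were used, per the submitters' processing notes. Per the file headers, exon counts were added up per gene ignoring strand, using CanFam3.1 with the annotation of Ensembl release 87 and no option for reads matching several places or genes, so genes with overlaps or near-identical copies are less certain. Polyadenylated RNA was made into libraries with a TruSeq kit, per the labels' protocols. The 4 columns of passage 10 carry an added number that the sources used here do not explain. The table held 0 blank or summary rows.

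From the deposited counts, levels were computed as CPM of the library total. Fold changes and tests came from edgeR 4.0.16 (R 4.3.3): filterByExpr, TMM scaling and glmQLFit on the 48 libraries (term: group), then glmQLFTest with Benjamini-Hochberg adjustment over all 12654 genes tested and a threshold of 0.05. Levels and fold changes therefore differ in scale, and on TMM-scaled CPM the rule gave 67 genes, 48 of them shared with the group described here. Standard errors of log2 fold changes were taken as the change divided by the root of its F statistic, and 95% intervals are 1.96 standard errors to each side. The script was tested on simulated data first. Passage trends were fitted to sums over a passage, and solute by passage terms to all libraries. Alternatives were RLE size factors, library totals, other filters, DESeq2 1.42.0, glmTreat, only the groups compared, a passage block and each passage left out.

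The labels give the same passage number to 1 library of each group, and this pairs them: deviations from group means correlated on average by 0.31 in the 72 pairs of like passage (lowest -0.09, highest 0.70, 66 over 0.1) and by -0.03 in the 792 others. Whether they shared a culture is not stated.

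The members and lists were chosen with earlier results of these data known. A symbol was found for 0 of 32704 identifiers, because the gene table used here, of assembly UU_Cfam_GSD_1.0, has no Ensembl column. Lists by symbol, cell markers and sequences were therefore not used here. The genes named are, by rule, the 2 with the highest smallest-of-3 fold change, the 2 highest and 2 lowest per kilobase, the 2 highest and 2 lowest for urea minus NaCl among those called alike against both solutes, the 2 with the lowest p for solute by passage, the 2 closest pairs and the 2 genes on each side of the 2-fold limit.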

Additional observations from a re-analysis of the deposited data

How the results depend on the processing

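The rule gave 31 genes with 1 CPM added to the means in place of 0.1, 67 with TMM-scaled and 68 with RLE-scaled CPM (48 and 47 shared with the 53), 52 with medians, 41 with a floor of 1 CPM, and 49 to 55 without 1 passage. Urea differed from NaCl in 38 genes (background 72.6%), in 35 to 38 without 1 passage, and in 18 with a minimum fold of 1.5; from raffinose it differed in 38 (background 76%), in 36 to 39 and in 24. With the passage number as a replicate block these counts were 41 and 40, and the block moved no count by over 1.5 times, and among the named genes it changed only the call of ENSCAFG00000010798 against raffinose; the solute by passage count stayed at 0. Library totals moved the median of all genes to 0.10 (urea minus NaCl) and 0.17 (urea minus raffinose), with 33 and 35 calls and medians over the 53 genes of -0.36 and -0.47. The passage trend was called in 14 genes (background 16.2%) with the 48 libraries taken as separate samples, which counts each passage 4 times. It was called in 1 with DESeq2 (154 of all 13150 genes tested) and in 0 to 1 without 1 passage. The solute by passage terms gave 0 to 0 without 1 passage.

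Sign changes were found only in differences that passed no test: ENSCAFG00000035180 (urea minus NaCl -0.27 to 0.023 without 1 passage, the positive value without passage 1), ENSCAFG00000005073 (urea minus NaCl 0.088 with library totals, 0.0098 without the filter, and -0.067 to 0.071 without 1 passage) and ENSCAFG00000000820 (urea minus raffinose 0.018 with library totals). The cause was not tested. Fits without 1 passage at a time for passage trend and solute by passage were added after seeing the data. Depth limits genes near 0.5 CPM in control, which rest on few reads per library.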
